A study of Mus musculus with 24 samples.

Results

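Donor CD8+ T cells recovered from the lung were compared with those recovered from the liver 4 days after transplantation (aHSCT in the labels) in a mouse model of acute graft-versus-host disease. The comparison took the 5 arrays titled as lung on day 4 and the 5 titled as liver on day 4, which are 10 of the 24 arrays of the series. The other arrays hold the graft on day 0 (4), and peripheral blood (5) and small intestine (5) on day 4, and they are used below only for reference levels. Recipients of both groups were females of the C57Bl/6 line m-act OVA (also Act-mOVA), aged 8 to 16 weeks, whose transgene Tg(CAG-OVA)-916Jen/J expresses ovalbumin from the CAG promoter. They were given 11 Gy of total body irradiation in 2 fractions of 5.5 Gy, 3 h apart, and then 3000000 bone marrow cells and 15000000 splenocytes from OT-I donors (C57BL/6-Tg(TcraTcrb)1100Mjb/J). In both groups only the grafted OT-I CD8+ T cells carried CD45.1, whereas the remaining graft cells and the host carried CD45.2. The cells were recovered from dissociated organs with anti-CD45.1 antibody and magnetic beads, and 300 pg of total RNA per sample went through 2 rounds of linear amplification and Cy3 labelling. The labels do not say whether the 5 samples of an organ came from separate animals, so the spread behind every p-value is that of the arrays at hand and may be technical.

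OT-I T cells bear a single transgenic receptor that recognises an ovalbumin peptide on MHC class I, and in hosts that express ovalbumin in all tissues they meet their antigen in every organ. The lung and the liver both hold dense networks of resident macrophages. Alveolar macrophages depend on the nuclear receptor PPAR-gamma, clear surfactant lipid and express a characteristic set of lipid-handling and eosinophil-associated ribonuclease genes, whereas liver Kupffer cells are marked by Clec4f, Vsig4 and Timd4. A bead-selected T cell sample can carry RNA of such neighbours, and in bulk RNA fewer cells of a type and less RNA per cell cannot be told apart.

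Levels are given as log2 signal relative to the 75th percentile of the gene probes of the same array, so that 0 is that percentile, and a difference is the mean of the lung arrays minus the mean of the liver arrays. Between 23.9% and 33.7% of gene probes were well above background on the lung arrays and between 28.5% and 32.9% on the liver arrays. T cell identity genes were well above background on every array, 16 or 17 of 17 on the lung arrays and 16 of 17 on each liver array. Array profiles correlated across genes at 0.842 to 0.960 between lung arrays, 0.857 to 0.976 between liver arrays and 0.728 to 0.958 between a lung and a liver array. The highest of the lung-to-liver values joined lung 1 and liver 1, and the lowest joined lung 4 and liver 2. Lung 3 differed from the other lung arrays in its content of macrophage RNA, and liver 5 from the other liver arrays in MHC class II RNA, as described below. Each of 5 slides held the lung and the liver array of 1 replicate number, beside the blood and intestine arrays of that number.

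No gene reached an adjusted p below 0.05 between the 5 lung and the 5 liver arrays (0 of 8273 tested genes, 0%; limma with Benjamini-Hochberg adjustment, smallest adjusted p = 0.117). Without adjustment 1638 genes had p under 0.05, of which 233 were higher in lung and 1405 higher in liver. The 5 lung values lay wholly above the 5 liver values for 54 genes (0.653% of those tested) and wholly below them for 348 (4.21%). Of the 54, 41 passed the detection filter only through lung, and of the 348, 80 only through liver. The median difference over all tested genes was -0.27 and 65.8% of the genes were higher in liver. Other scalings moved this median to between -0.24 and -0.02, so list medians below are to be read beside it. With each array set at the median of the probes detected on all 10 arrays, 48.3% of genes were higher in lung, against 34.2% with the main scaling.

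The count of calls turned on single arrays. Without lung 1 and liver 5, limma called 1127 genes higher in lung (13.6%) and 832 higher in liver (10.1%). Without lung 1 alone it called 30 (0.363%), of which 28 were higher in liver. Without liver 5 alone it called 0, although 2891 genes then had an unadjusted p under 0.05. Without lung 3 it called 77 genes higher in lung (0.931%) and 7 higher in liver (0.0846%), and without liver 3 it called 9 and 1. Within 1 model of all 24 arrays, which takes the spread from all 5 groups, 34 genes of 9449 were called higher in lung (0.36%) and 9 higher in liver (0.0952%). All 30 genes called without lung 1 were also called in the same direction without both arrays. The omission of lung 1 and liver 5 was chosen with earlier results of these data known, so the calls that it gives are descriptions of 8 arrays and no independent support. The same holds for the calls without lung 3, the array that lacks macrophage RNA.

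The largest differences lay in genes of alveolar macrophages, most of which were high on 4 of the 5 lung arrays and not well above background on the liver arrays. All 19 tested genes of the alveolar macrophage list were higher in lung, with a median difference of 3.69. However, 15 of the 19 passed the detection filter only through lung, which favours a higher lung level. The 4 that passed in both organs (Itgax, Abcg1, Fabp5 and Cd9) had a median difference of 1.02. Of the list, 22, 19, 4, 21 and 21 of 22 genes were well above background on lung arrays 1 to 5, against 4 to 7 on the liver arrays. The summed level of the list, in units of the array's 75th percentile, was 255, 228, 30.3, 961 and 638 on lung arrays 1 to 5. It was 24.9 to 51.0 on the liver arrays, 28.4 to 35.0 in blood, 33.3 to 90.6 in intestine and 17.6 to 64.1 in the graft. Lung 3 thus lay within the range of the liver arrays.

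The eosinophil-associated ribonucleases form a tandem family of secreted RNases, of which alveolar macrophages are a main source in the mouse. Ear1, Ear2, Ear10, Ear12 and Rnase2a were each measured by 1 probe of 60 bases, all on chromosome 14. Because the copies resemble each other, their separate values are uncertain. Of the 10 pairs of these probes, 2 overlapped in sequence. The overlapping stretches of Ear1 and Ear12 are printed because they differ at 1 of 22 bases (capitals), and those of Ear10 and Ear12 because 42 of 48 overlapping bases were identical (87.5%; the 30 bases printed hold 1 difference, in capitals). All are 5′ to 3′, from the probe sequences of the deposited array files:
Ear1: tacccaatgcagataccaaTca
Ear12: tacccaatgcagataccaaCca
Ear10: aagatcaTtggagtactacacagttgcctg
Ear12: aagatcaGtggagtactacacagttgcctg

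In the mm9 positions given in the files, the Ear1 probe lies at chr14:44396709-44396768, Ear10 at chr14:44500615-44500674, Ear12 at chr14:44680899-44680958, Ear2 at chr14:44681119-44681178 and Rnase2a, named Ear11 in the files, at chr14:51875064-51875123. A gene annotation of mm9 was not used here, so exon and UTR positions are not given.

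Ear2 stood at 5.35, 5.05, -2.01, 7.32 and 7.18 on lung arrays 1 to 5, and at -2.91, -2.77, -2.54, -3.04 and -2.69 on liver arrays 1 to 5. It was well above background on 4 lung arrays and on no liver array, and lung 3 was at background as well. Lung 3 lay above liver 3 by 0.53 for Ear2, 0.57 for Krt79, 0.53 for Cidec and 0.57 for Mpeg1, all at background on both arrays, so the order of lung 3 and the liver arrays in such genes is that of values below detection. Its difference was 7.37 ± 1.44 (SE, n = 5 and 5; limma adjusted p = 0.117). Because the liver signal was not well above background, the fold is a lower bound: the mean of the lung arrays over the mean, per liver array, of the higher of the lowest signal well above background and the probe's own. On that rule Ear2 was at least 44.9-fold higher in lung, Ear10 at least 27.8-fold, Ear1 at least 17.9-fold, Rnase2a at least 17.7-fold and Ear12 at least 17.5-fold. Ear10 differed by 7.03 ± 1.38, Ear1 by 6.43 ± 1.28, Ear12 by 6.32 ± 1.24 and Rnase2a by 6.31 ± 1.25, each with the same order of arrays: lung 4 highest, then lung 5, 1, 2 and 3. Without lung 3 the difference of Ear2 was 9.02. These ribonuclease genes passed the detection filter through lung only, so the p-value given is no support. In the graft, Ear2 was well above background on all 4 arrays at 1.64 ± 1.46 (SD, n = 4), and in blood on none.

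Lipid-handling genes of alveolar macrophages followed the same arrays. Lpl, lipoprotein lipase, was 0.67, 0.34, -2.21, 2.56 and 1.48 on lung arrays 1 to 5 and between -3.35 and -2.84 on the liver arrays, where it was at background, as on lung 3. Its difference was 3.64 ± 0.68 and at least 2.78-fold (limma adjusted p = 0.117), and 4.34 without lung 3. Cidec, a lipid droplet protein, differed by 3.67 ± 0.72, and Fabp1, a fatty acid binding protein that hepatocytes also express, by 4.17 ± 0.92 (at least 5.17-fold), both at background on lung 3 and on all liver arrays. Fabp4, the fatty acid binding protein of macrophages and fat cells, was 0.35, 1.60, -2.23, 3.81 and 2.76 in lung. In liver it was -3.19, -3.03, -2.79, -3.34 and 0.22, and only liver 5 was well above background, so that the organs overlapped. Pparg, the transcription factor of this lineage, was 0.27, -0.56, -2.06, 2.63 and 0.60 in lung against -3.01 to -1.98 in liver (difference 2.70 ± 0.68, at least 2.12-fold). Each of these lipid genes passed the detection filter through lung only, so the p-value given is no support.

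Surface receptors and other markers of the lineage were high on the same lung arrays. Chil3, a secreted chitinase-like protein, was 6.71, 6.50, -2.16, 8.24 and 7.83 on the lung arrays. On the liver arrays it was -3.15, -1.31, -2.71, 3.42 and -2.94, high on liver 4 alone, which put it above lung 3. Marco, a scavenger receptor that Kupffer cells also express, was 3.63, 4.10, -2.41, 6.42 and 4.42 in lung and -0.94, 1.68, -2.91, -1.41 and -1.90 in liver (difference 4.33 ± 1.41). Siglecf, the sialic acid receptor used to identify alveolar macrophages, was 1.52, 1.53, -2.27, 4.20 and 3.42 in lung and -3.35 to -1.64 in liver, overlapping only through lung 3 (difference 4.39 ± 0.98, at least 6.02-fold). Krt79, a keratin known as an alveolar macrophage transcript, differed by 6.08 ± 1.18 (at least 15.5-fold), and Atp6v0d2, a proton pump subunit, by 4.67 ± 0.99 (at least 5.70-fold), both at background on all liver arrays. Itgax, the CD11c integrin chain, was well above background on all 10 arrays, at 2.50 to 4.38 in lung and 0.98 to 3.22 in liver, where liver 5 was the highest. Siglecf, Chil3 and Atp6v0d2 were named after their values were seen. Over the list, limma called 13 genes higher in lung without lung 1 and liver 5, 13 without lung 3 and 10 in the model of all 24 arrays; since most of the list passed the filter through lung only, nothing is read from these counts.

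**Figure D1:**
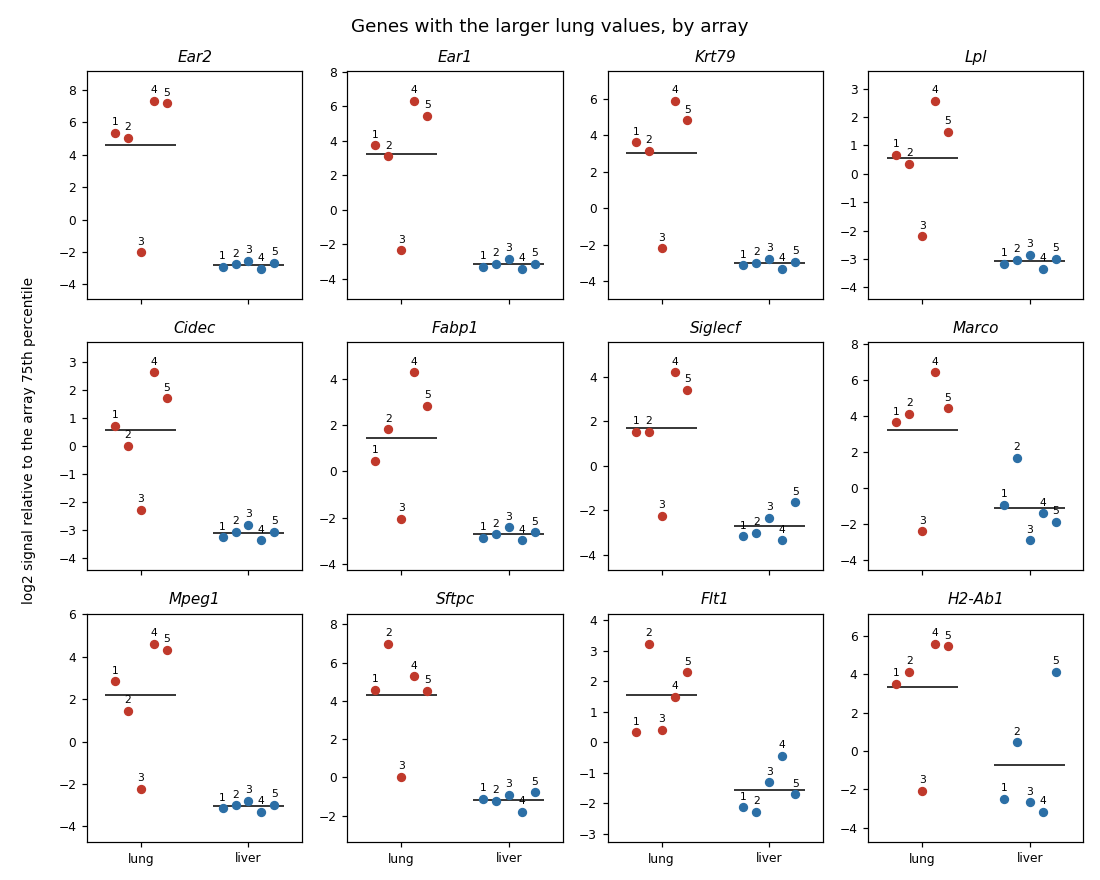
Levels of genes that were high in lung, in log2 signal relative to the array's 75th percentile, with 1 numbered point per array for the 5 lung (red) and 5 liver (blue) arrays, the mean as a line and an axis of its own per gene. For Ear2 and Ear1, 4 lung points stand far above the liver points, and the lowest lung point is lung 3.

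Genes shared by macrophages of many organs were also higher in lung, by a median of 1.41 over 12 tested of 23 on the array, 11 of them higher in lung. For the 8 that passed the filter in both organs the median was 1.18. Mpeg1, which encodes perforin-2, was 2.84, 1.44, -2.23, 4.61 and 4.33 in lung and -3.31 to -2.80 in liver (difference 5.25 ± 1.05, at least 8.62-fold, limma adjusted p = 0.117). Cybb, the catalytic NADPH oxidase subunit of phagocytes, was 0.43, -0.73, -2.39, 3.98 and 3.22 in lung and -3.47 to -2.88 in liver. Neither gene was well above background on lung 3 or on any liver array. Both passed the detection filter through lung only, so the p-value given is no support. Tyrobp, the signalling adaptor DAP12, was 2.21, 2.27, 0.11, 5.15 and 4.28 in lung against -0.97 to 0.72 in liver, with lung 3 inside the liver range. Lyz1, a lysozyme gene, was -2.01 on lung 3 and 3.66 to 6.05 on the other lung arrays, and reached 2.46 on liver 5. On lung arrays 1 to 5, 15, 13, 4, 17 and 15 of the 23 genes were well above background, against 6 to 9 on the liver arrays.

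Several of the smallest p-values among genes higher in lung belonged to further myeloid genes. Sirpa, the inhibitory receptor for CD47, differed by 4.23 ± 0.84 (at least 5.02-fold), Cd33, a sialic acid receptor of myeloid cells, by 2.51 ± 0.48 (at least 1.16-fold), and Alox5, which begins leukotriene synthesis, by 2.88 ± 0.57 (at least 1.58-fold). Hsd3b7, an enzyme of oxysterol and bile acid metabolism, was 2.61, 2.35, -2.09, 4.73 and 3.82 in lung and -3.21 to -2.70 in liver (difference 5.24 ± 1.00, at least 9.14-fold). All 4 had an adjusted p of 0.117 and none was well above background on a liver array. They passed the detection filter through lung only, as did Ccl6, Ccl9 and Tgfbi below, so their p-values are no support. Of the chemokines, Ccl6 was 4.83, 5.03, -2.10, 7.40 and 6.50 in lung and -2.02, 0.02, -1.63, -3.19 and -2.88 in liver. Ccl9 was 1.31, 1.29, -2.06, 4.34 and 2.94 in lung and -3.13 to -1.43 in liver (difference 3.92 ± 0.95). Both chemokines, which bind CCR1, overlapped between the organs only through lung 3. Tgfbi, a secreted matrix protein of macrophages, differed by 3.16 ± 0.82, with 2.17, 1.64, -0.92, 4.00 and 3.64 in lung and a highest liver value of 0.06.

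Transcripts of other lung cells were present on the lung arrays with a different order of arrays. Sftpc, the surfactant protein of type II alveolar cells, was 4.60, 6.99, 0.04, 5.29 and 4.51 in lung and -1.78 to -0.78 in liver, with the highest value on lung 2 and values at background on lung 3 and all liver arrays. Its difference was 5.45 ± 0.98 and at least 36.3-fold (limma adjusted p = 0.117), and 6.51 without lung 3. Sftpa1, another surfactant protein, was 0.11, 2.92, -2.13, 0.67 and 0.04 in lung against -3.11 to -2.60 in liver. Flt1, a VEGF receptor of endothelium, had the smallest p among genes higher in lung: 0.33, 3.23, 0.41, 1.49 and 2.30 in lung and -2.13, -2.27, -1.31, -0.44 and -1.70 in liver (difference 3.12 ± 0.56). Its groups did not overlap, lung 3 included, and limma called it without lung 1 (adjusted p = 0.0408). Flt1, like Sftpc and Sftpa1, passed the detection filter through lung only, so its p-values and the lack of overlap are no support. Ramp2, an endothelial receptor partner, was highest on lung 2 (4.68) and lung 5 (2.91), and Cldn5, a tight junction protein of endothelium, on the same arrays (3.66 and 3.38). Kdr, the other VEGF receptor, went the opposite way, at 0.34 to 0.47 in lung and 0.52 to 0.94 in liver, which is a small difference of -0.24 ± 0.18.

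The list of lung epithelium held 9 tested genes with a median difference of 0.36, and that of endothelium 7 with a median of 1.29. Of these, 4 and 3 passed the filter only through lung, and the members that passed in both organs had medians of 0.074 and 0.79. Their summed levels on the lung arrays were 32.0 to 216 and 46.1 to 207, each highest on lung 2, against 25.4 to 68.2 and 33.2 to 98.9 on the liver arrays. Marker genes of the liver's own cells were not higher on the liver arrays as a group. Alb, Apoa1, Apob and Ttr, the most abundant secreted products of hepatocytes, were not well above background on any of the 10 arrays, nor were the Kupffer cell genes Vsig4, Timd4 and Folr2. Of 32 hepatocyte genes, 2 to 8 were well above background on a liver array and 2 to 5 on a lung array. Clec4f was well above background on 2 lung and 3 liver arrays. Trf, a transferrin gene on the hepatocyte list that macrophages also express, was 3.10, 2.85, -2.21, 5.56 and 5.03 in lung and -2.63 to 1.34 in liver. The part of these other cells in the differences of T cell genes below was not tested.

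**Figure D2:**
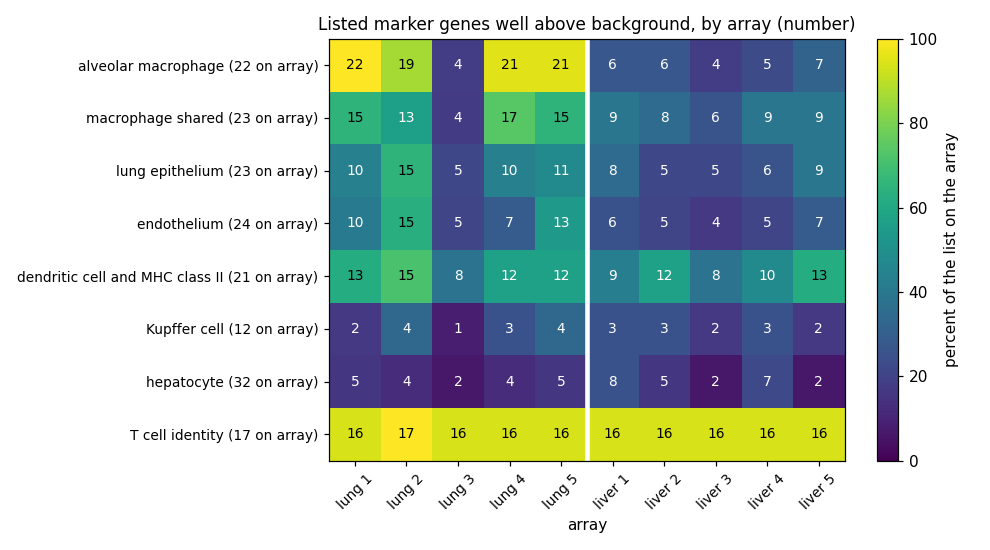
Number of listed marker genes well above background on each of the 10 arrays, coloured by percent of the list on the array. T cell genes are at 16 or 17 of 17 throughout, alveolar macrophage genes at 19 to 22 of 22 on 4 lung arrays and at 4 on lung 3, and hepatocyte genes at 8 or fewer of 32.

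The MHC class II genes H2-Ab1 and H2-Eb1, whose products present antigen to CD4+ T cells, had higher means in lung. They did not separate the organs fully, because lung 3 was low and liver 5 high. H2-Ab1 was 3.51, 4.14, -2.06, 5.59 and 5.46 on lung arrays 1 to 5 and -2.50, 0.46, -2.68, -3.15 and 4.14 on liver arrays 1 to 5. H2-Eb1 was 3.23, 4.23, -2.04, 5.62 and 5.44 in lung and -2.87, 0.43, -2.42, -2.99 and 4.97 in liver. Both were high on lung 1, 2, 4 and 5 and on liver 5, and low on lung 3 and on liver 1, 3 and 4. H2-Eb1 differed by 3.87 ± 1.74 (limma adjusted p = 0.248 over 10 arrays, and 0.041 without lung 1 and liver 5). H2-Ab1 and H2-Eb1 passed the detection filter through lung only, and the omission removed their highest liver array, so these p-values are no support. In the graft before transfer H2-Ab1 and H2-Eb1 stood at 6.49 ± 0.17 and 6.32 ± 0.15 (SD, n = 4). Of the 12 tested genes of dendritic cells and MHC class II, 8 were higher in lung, and 5 were called higher in lung without those 2 arrays, beside 13.6% of all genes. For the 4 that passed the filter only through lung, H2-Ab1 and H2-Eb1 among them, the filter itself favoured a higher lung level. The 8 that passed in both organs had a median of -0.11.

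T cell identity genes were high in both organs, and 15 of the 16 tested were lower in lung, with a median difference of -0.36 beside -0.27 over all genes. Cd8a was 4.31, 3.93, 4.02, 2.89 and 3.94 in lung and 4.68, 4.71, 4.67, 4.37 and 4.96 in liver, without overlap (difference -0.86 ± 0.27, limma adjusted p = 0.183). Cd8b1, which encodes the other CD8 chain, was 4.36, 3.32, 3.85, 2.41 and 3.19 in lung and 4.52, 4.77, 4.86, 4.50 and 3.17 in liver. It overlapped only because liver 5 lay at the lung level. Without lung 1 and liver 5 both were called lower in lung, Cd8a by -0.92 ± 0.28 (adjusted p = 0.045) and Cd8b1 by -1.47 ± 0.31 (adjusted p = 0.0335). Cd3e, a chain of the T cell receptor complex, was 5.70 to 6.40 in lung and 6.00 to 6.56 in liver, a difference of -0.20 ± 0.22. With each array set at the median of the probes detected on all 10 arrays, that difference became 0.04. Ptprc, which encodes CD45, was 1.94, 1.85, 1.48, 0.02 and 0.50 in lung and 1.45 to 2.44 in liver, and Cd4 was 0.12 ± 0.32 in lung and -0.20 ± 0.17 in liver (SD, n = 5).

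Zap70, a kinase of the T cell receptor pathway, and Cd5 and Cd6, its surface modulators, did not overlap between the organs either; these 3 were named after their values were seen. Zap70 was 5.23, 4.89, 5.16, 4.65 and 5.36 in lung and 5.45, 5.41, 5.95, 5.91 and 5.72 in liver (difference -0.63 ± 0.22, limma adjusted p = 0.194). Cd6 differed by -0.64 ± 0.32 and Cd5 by -0.53 ± 0.21. For all of these genes lung 4 was the lowest lung array, which was also the lung array with the highest level of alveolar macrophage genes. Of the 16 tested genes of the list, 5 were wholly lower in lung, where the share over all genes was 4.21%. The summed level of the list was 505 to 787 in lung and 682 to 881 in liver. With the median of commonly detected probes as the scale the list's median was -0.12, and the median over all genes -0.02.

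**Figure D3:**
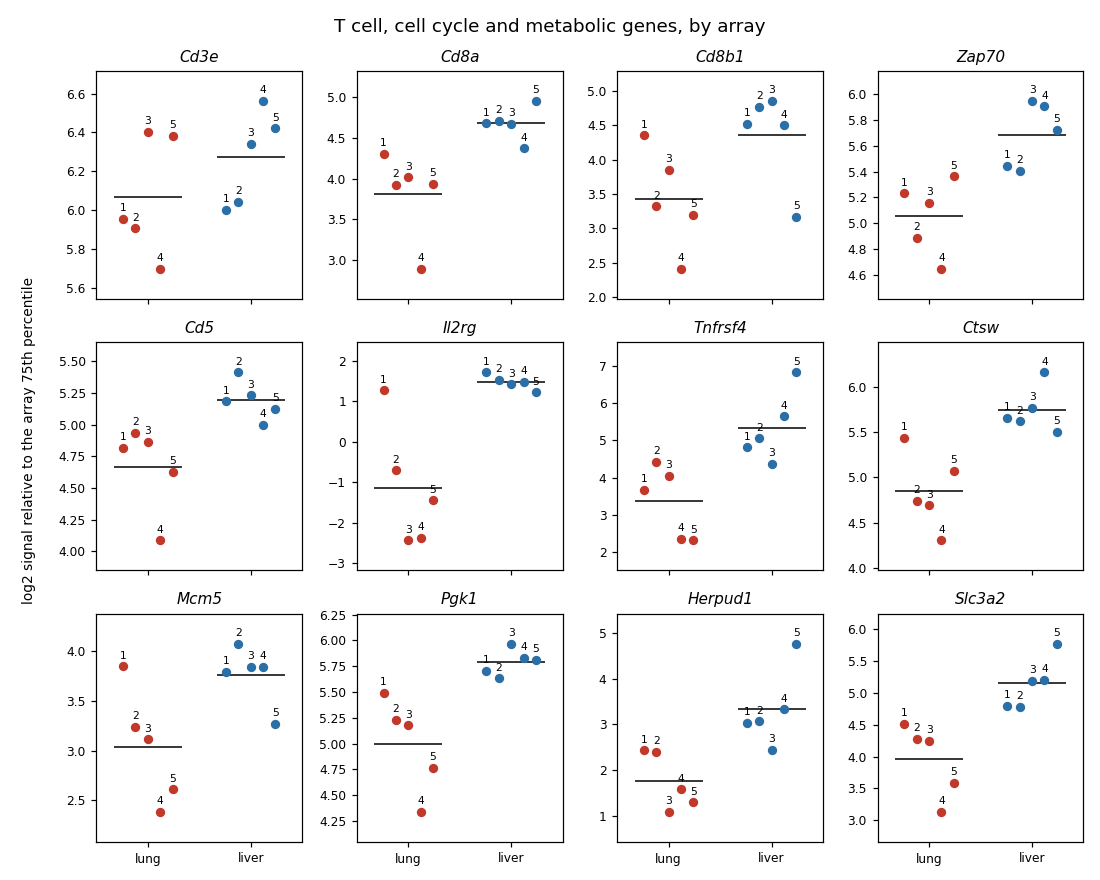
Levels of T cell, cell cycle and metabolic genes in log2 signal relative to the array's 75th percentile, with 1 numbered point per array for the 5 lung (red) and 5 liver (blue) arrays, the mean as a line and an axis of its own per gene. Cd8a does not overlap between the organs, Cd8b1 overlaps through liver 5, and Cd3e overlaps widely.

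Il2rg, the common gamma chain through which T cells receive IL-2, IL-7 and IL-15, had one of the largest differences among T cell genes. It was 1.28, -0.70, -2.43, -2.38 and -1.44 on lung arrays 1 to 5 and 1.72, 1.53, 1.42, 1.49 and 1.23 on liver arrays 1 to 5. Only lung 1 was at the liver level, and the gene was well above background on 2 lung arrays and all 5 liver arrays. Its difference was -2.62 ± 0.60 (limma adjusted p = 0.136), and -3.28 ± 0.38 without lung 1 and liver 5 (adjusted p = 0.0156). Without lung 1 alone the adjusted p was 0.00809. It was read by a single probe and passed the detection filter through liver only. That route favours a higher liver level, so these p-values are no support. In blood Il2rg was 0.86 ± 0.89 and in intestine -0.32 ± 1.86 (SD, n = 5 each).

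Tnfrsf4, the costimulatory receptor OX40, was 3.67, 4.43, 4.05, 2.36 and 2.32 in lung and 4.81, 5.05, 4.37, 5.64 and 6.82 in liver, overlapping only at lung 2 and liver 3. Its difference was -1.98 ± 0.53 (limma adjusted p = 0.152). It was 1.36 ± 0.37 in the graft (SD, n = 4) and 5.64 ± 1.09 in intestine. Of the 13 tested costimulation and activation genes, 10 were lower in lung, and 2 were called lower without lung 1 and liver 5, beside 10.1% of all genes. Cd96, an inhibitory receptor for CD155, differed by -0.93 ± 0.33, and Runx3, the transcription factor that maintains CD8+ identity, by -1.48 ± 0.47 with a range of -2.29 to 0.31 in lung and 0.07 to 1.58 in liver. Runx3 too passed the filter through liver only.

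Cytotoxic molecules were lower in lung for 12 of 13 tested genes, with a median difference of -0.61, and none was called over 10 arrays. Ctsw, a cysteine protease of killer lymphocytes, was 5.44, 4.74, 4.70, 4.31 and 5.07 in lung and 5.66, 5.62, 5.76, 6.16 and 5.5 in liver, without overlap. It differed by -0.89 ± 0.25 (limma adjusted p = 0.16), and by -1.09 ± 0.24 without lung 1 and liver 5 (adjusted p = 0.0335). Unc13d and Stxbp2, which act in the release of cytotoxic granules, differed by -1.02 ± 0.56 and -0.61 ± 0.28, and overlapped through lung 1 and liver 5 for Unc13d and through liver 5 for Stxbp2. Each was called without those 2 arrays, and the 3 of 13 called stand beside 10.1% of all genes. Among the 13 tested integrin and adhesion genes, Itgb1, Itgal (the CD11a chain of LFA-1) and Selplg (the P-selectin ligand) were called lower in lung without those arrays, against 10.1% of all genes. Over 10 arrays they differed by -1.01 ± 0.52, -0.55 ± 0.25 and -0.44 ± 0.21. Itgax, of the same list, was called higher in lung without those arrays, beside 13.6% of all genes. Over 10 arrays the list's median was -0.10, beside -0.27 over all genes, and 4 of the 13 were higher in lung.

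Cell cycle genes were lower in lung for 36 of 41 tested, with a median difference of -0.45, and none was called over 10 arrays. Mcm5, a subunit of the replicative helicase, was 3.85, 3.24, 3.11, 2.39 and 2.61 in lung and 3.79, 4.07, 3.84, 3.84 and 3.27 in liver. Nusap1, a spindle protein, was 2.65, 2.74, 2.06, 1.65 and 2.28 in lung and 3.46, 3.22, 3.00, 3.26 and 2.20 in liver. In both genes liver 5 was the lowest liver array and lay within the lung range. Without lung 1 and liver 5, limma called 12 of the 41 lower in lung and none higher, beside 10.1% and 13.6% of all genes, with differences of -1.05 ± 0.25 for Mcm5, -1.05 ± 0.26 for Nusap1, -1.03 ± 0.22 for Ube2c, a mitotic ubiquitin-conjugating enzyme, and -1.34 ± 0.27 for Cdc25b, a mitotic phosphatase (adjusted p = 0.0335 each). Over 10 arrays Ube2c differed by -0.60 ± 0.33 and Cdc25b by -0.80 ± 0.40. In the graft, whose T cells were naive per the labels, Nusap1 was -0.67 ± 0.40 and Ube2c 0.58 ± 0.41 (SD, n = 4), below every lung and liver array. The summed level of the list was 476 to 842 in lung and 646 to 1012 in liver.

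Genes of energy metabolism also lay lower in lung. Pgk1, a glycolytic kinase, was 5.49, 5.23, 5.18, 4.34 and 4.76 in lung and 5.71, 5.63, 5.97, 5.83 and 5.81 in liver, without overlap (difference -0.79 ± 0.24, limma adjusted p = 0.183). Pkm, pyruvate kinase, differed by -0.62 ± 0.28 and Pfkl, a phosphofructokinase, by -1.16 ± 0.53. Glycolysis genes were lower in lung for 16 of 18 tested (median -0.49), and 3 were called without lung 1 and liver 5, beside 10.1% of all genes. Hif1a, which drives the hypoxia response, was well above background on no lung array and on 4 liver arrays, through which alone it passed the filter, and was at least 1.59-fold lower in lung. All 49 tested genes of oxidative phosphorylation were lower in lung, with a median of -0.32 that was near the median over all genes, and 3 were called without those arrays, a smaller share than the 10.1% of all genes. Of these, Cyc1, cytochrome c1, was 4.51, 4.33, 3.84, 3.55 and 3.89 in lung and 4.77, 4.88, 4.99, 4.92 and 4.21 in liver. Ndufa6, of complex I, differed by -1.18 ± 0.37 and Cox6b1, of complex IV, by -1.50 ± 0.63. Cox6b1 passed the filter through liver only, and its values overlapped, with 0.76 on lung 1 and -1.56 on liver 5. Of fatty acid genes, Cpt1a, which brings fatty acids into mitochondria, differed by -0.77 ± 0.25 and Hadha, a beta-oxidation enzyme, by -0.89 ± 0.35, opposite to the macrophage fatty acid binding proteins on the same list. The 49 tested ribosomal protein genes had a median of -0.08, which became 0.16 with the median of commonly detected probes as the scale.

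Several genes of the endoplasmic reticulum and of amino acid uptake showed a similar order of organs. Herpud1, which takes part in the degradation of misfolded proteins, was 2.43, 2.40, 1.09, 1.58 and 1.29 in lung and 3.04, 3.07, 2.44, 3.33 and 4.77 in liver, without overlap (difference -1.57 ± 0.43, limma adjusted p = 0.158). Calr, a chaperone of the endoplasmic reticulum, differed by -0.73 ± 0.23 and Sdf2l1, a cochaperone there, by -0.60 ± 0.24. These 3 of 14 tested genes of the unfolded protein response were called lower in lung without lung 1 and liver 5, beside 10.1% of all genes. Slc3a2, the shared heavy chain of amino acid transporters (CD98), was 4.51, 4.28, 4.25, 3.13 and 3.59 in lung and 4.80, 4.79, 5.19, 5.21 and 5.78 in liver, without overlap. Its difference was -1.20 ± 0.31 (adjusted p = 0.145). The glutamine transporter Slc1a5 differed by -1.13 ± 0.33, and the arginine transporter Slc7a1, named after its values were seen, by -0.89 ± 0.31 without overlap. Slc3a2 and Slc1a5 were the 2 of 17 tested amino acid genes called lower in lung without lung 1 and liver 5, near the 10.1% of all genes. H2-D1, an MHC class I chain, differed by -0.91 ± 0.29, and Psmb8 and Psmb9, subunits of the immunoproteasome, by -0.57 ± 0.22 and -0.56 ± 0.21. They were the 3 members of the interferon gamma-induced list called lower in lung without lung 1 and liver 5, beside 10.1% of all genes. Of the 19 tested genes of that list, 10 were higher in lung. The lipid peroxide reductase Gpx4 was 2.94 to 3.32 in lung and 3.66 to 3.92 in liver, and Txnrd1, thioredoxin reductase, differed by -0.69 ± 0.27. These were the 2 of 12 tested oxidative stress genes called lower in lung without those arrays, beside 10.1% of all genes. The median of that list was -0.14, beside -0.27 over all genes.

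**Figure D4:**
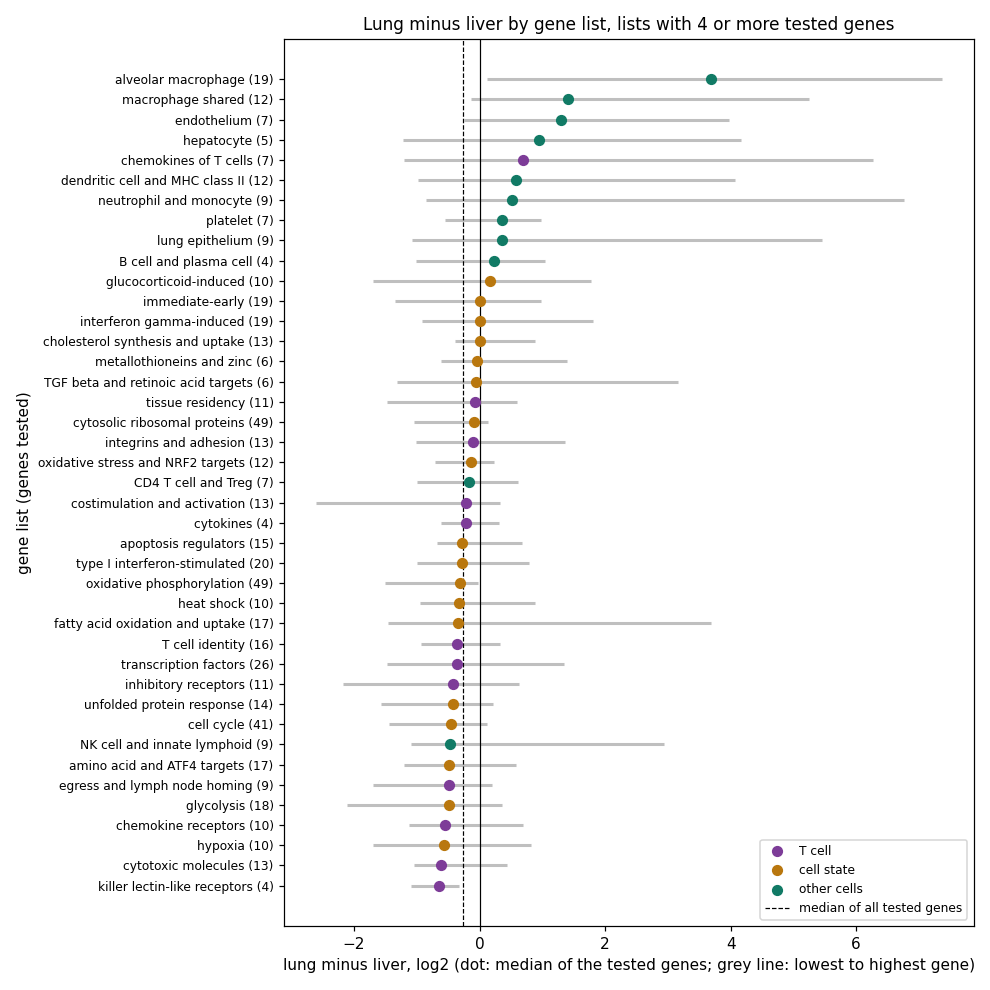
Median lung minus liver difference (log2) of each gene list with 4 or more tested genes (dots), with the lowest and the highest gene of the list (grey lines), coloured by kind of list; the dashed line is the median over all tested genes, -0.27. The alveolar macrophage list has the highest median, 3.69, and most T cell, cell cycle and metabolic lists lie between -0.65 and 0.

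The 15 genes with the smallest p among those higher in liver, none of them called over 10 arrays, were mostly genes of broad expression at low signal. Kdelr1, the receptor that returns proteins to the endoplasmic reticulum, was -0.92, -1.84, -2.24, -2.28 and -2.09 in lung and -0.24, 0.17, 0.30, 0.30 and -0.43 in liver (difference -1.89 ± 0.29, limma adjusted p = 0.117). It was well above background on no lung array and on all 5 liver arrays, and at least 1.47-fold lower in lung. The mitochondrial ribosomal protein gene Mrpl19 was -2.60 to -1.57 in lung and -0.82 to -0.05 in liver, and differed by -1.62 ± 0.25. Tmem134, a membrane protein gene, was the only one of the 15 well above background on all 10 arrays, at 3.50, 2.96, 2.96, 2.69 and 2.88 in lung and 3.91, 3.97, 4.25, 4.28 and 3.95 in liver (difference -1.07 ± 0.21). The others were Gm3201, Thap12, Lhpp, Gm11110, Zkscan5, Plekhb2, Tmem203, Trps1, Zbtb9, 2310061I04Rik, Selenos and Wdr48, with differences from -2.27 to -1.27. All but Tmem134 passed the filter through liver only, which favours a higher liver level, and the 15 were chosen for their p. No count or further p is therefore read from them.

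The genes called higher in lung once lung 1 and liver 5 were left out mostly shared an array profile. Of the 1127 genes, 968 had values that correlated above 0.9 over the 10 arrays with the set's median profile. None of the 19 alveolar macrophage genes passed that cut, although Itgax stood at 0.892 and Fabp4 at 0.69. Of those 19, 13 were themselves among the 1127. The set's median profile, relative to each gene's mean, was -0.59, 0.15, 0.37, 0.94 and 0.62 on lung arrays 1 to 5 and -0.53, -0.89, -0.97, -0.11 and 1.02 on liver arrays 1 to 5. Liver 5 was therefore as high as lung 4, and lung 1 as low as liver 1. Liver 5 exceeded the other 4 liver arrays for 1051 of the 1127 genes, beside 2769 of all 8273. Lung 1 was below the other 4 lung arrays for 1036 of them, beside 2228 of all 8273. Over 10 arrays 124 of the 1127 had an unadjusted limma p under 0.05 and 39 did not overlap. Among all 8273 genes, 233 and 54 did so with higher lung values. Of the 832 called higher in liver these counts were 640 and 166, beside 1405 and 348 of all 8273 with higher liver values. These are descriptions, since the profile and the calls come from the same values.

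The profile joined genes known from unrelated cells. Esam of endothelium (correlation 0.984), Gp6 of platelets (0.993), Cxcr2 of neutrophils (0.993), Xcr1 of dendritic cells (0.98) and Pck1, an enzyme of gluconeogenesis in liver and kidney (0.994), all followed it, as did the lymphocyte genes Gata3 (0.977), Bcl2 (0.99) and Notch1 (0.996). Notch1 was 4.08, 4.85, 5.15, 5.67 and 5.39 in lung and 4.12, 3.89, 3.90, 4.54 and 5.74 in liver, a difference of 0.59 ± 0.40 over 10 arrays (limma adjusted p = 0.349) and 1.16 ± 0.26 without lung 1 and liver 5 (adjusted p = 0.0335). Pck1 was 4.35 to 6.04 in lung and 3.99 to 6.04 in liver and well above background on all arrays, including the graft at 5.21 ± 0.88 (SD, n = 4). The points of these correlations share their arrays and the scaling, and 1067 of all 8273 genes reached 0.9. Base composition of the probes moved with the comparison as well. The median difference was -0.59 for the 99 genes whose probe held under 35% G and C and 0.28 for the 82 with 60% or more, and on lung 4 the median deviation from the gene mean ran from -1.03 to 0.47 over the same range. The part of base composition in the differences was not tested.

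**Figure D5:**
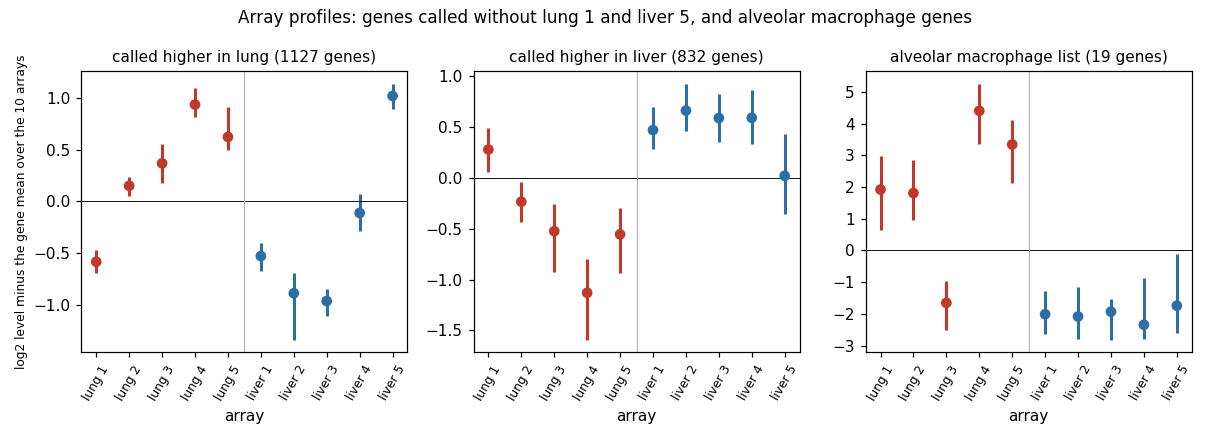
Array profiles as log2 level minus the gene's mean over the 10 arrays, for the 1127 genes called higher in lung without lung 1 and liver 5, the 832 called higher in liver and the alveolar macrophage genes; points are medians and bars quartiles over genes, with an axis of its own per panel. In the first set liver 5 (1.02) is as high as lung 4 (0.94), whereas the macrophage genes are low on lung 3 and on all liver arrays.

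Within slides, each holding 1 lung and 1 liver array, 381 of the 8273 genes were higher in lung on all 5 slides and 1625 were higher in liver on all 5. Flt1 was higher in lung on 5 of 5 slides. Ear2, Mpeg1 and Sftpc were higher in lung on 4 slides and at background on both arrays of slide 3, and Ccl6 was higher on 4 of 5. Cd8a, Ctsw, Pgk1, Slc3a2, Il2rg and Kdelr1 were higher in liver on 5 of 5, Cd8b1 and Mcm5 on 4 of 5. Flt1, Ear2, Mpeg1, Sftpc and Ccl6 passed the detection filter through lung only, and Il2rg and Kdelr1 through liver only. That route favours the direction seen, so the slide counts of these genes are no support. Cd8a, Ctsw, Pgk1, Slc3a2, Cd8b1 and Mcm5 passed in both organs. With the slide as a block limma again called 0 genes, and 2009 had an unadjusted p under 0.05.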

How the data were processed

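Each array carried 1 colour (Cy3). The intensity per spot is the processed signal that the authors deposited from the scanner. Agilent Feature Extraction made it: the submitters' processing notes give version 10.7, whereas per the file headers it was 9.5.1.1. The authors' deposited log2 table was used as an alternative; its columns matched quantile-normalised, probe-centred signal with correlations of at least 0.9997 over 24 arrays, and its column medians were -0.030 to 0.028. From the processed signals, control and non-uniform spots were left out, spots of a probe averaged, values set to log2 and scaled by subtraction of each array's 75th percentile. Probes were named by accession (27592), symbol (3494), synonym (388) or the file's own name (1530), and 6425 had no name. A gene was tested if its probe was well above background on at least 4 of 5 arrays of lung or of liver. This left 9784 probes and 8273 genes, each read by its probe of highest mean. Lung and liver were compared with limma 3.58.1 (lmFit and eBayes) in R 4.3.3 and Benjamini-Hochberg adjustment at 0.05, tested on simulated data. Only the 10 arrays entered, because the spread was uneven over the 5 groups. A missing value left 1 array out for Abcf3 and for Rnf10. The number of arrays limits the precision.

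The genes named are those of smallest p, 15 per direction, list members called, and fixed T cell and marker genes. Since 0 genes were called over 10 arrays, list members called without lung 1 and liver 5 were named by a rule added after the data were seen, with at most 4 per list and direction. The members and the 45 lists were chosen with earlier results of these data known. Same-numbered lung and liver arrays share a slide. Deviations from the group means of same-numbered arrays correlated at 0.366, 0.491, 0.264, 0.0821 and 0.219, and because 1 of these was under 0.1 the numbers were not taken to pair animals. Alternatives covered background correction, scaling, filters, probe choice, array weights, slide blocks and arrays left out. One gene's result is not reported here.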

Additional observations from a re-analysis of the deposited data

Results flagged for a closer look

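Among 232 groups of 5 values, 17 held an array whose gap to its nearest neighbour, as a share of the range, was above Dixon's critical value of 0.71. Chance gives such a gap in about 1 in 20 groups.

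On lung 3 the macrophage and MHC class II genes were far below the other lung arrays, with gaps of 0.757 for Ear2, 0.833 for Chil3, 0.729 for Ccl6 and 0.729 for H2-Ab1. The summed level of the erythroid list was far above them on the same array, at 78.84 (gap 0.973). The globin genes Hba-a2 (6.02), Hbb-bt (2.79) and Hba-a1 (1.34), named after their values were seen, were highest there, whereas the lowest lung level of Hba-a2 was -2.64.

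Lung 4 was far below the other lung arrays for the T cell gene Cd8a (gap 0.731) and the arginine transporter gene Slc7a1 (0.733). It was far above them for the summed level of the Kupffer cell list, at 90.99 (gap 0.752), a list that includes Marco. Lung 2 was far above the other lung arrays for the summed level of the lung epithelium list, at 215.5 (gap 0.741).

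Liver 5 was far above the other liver arrays for Fabp4, at 0.22 (gap 0.846), and for the summed level of the lung epithelium list, at 68.2 (gap 0.859). It was far below them for Cd8b1, at 3.17 (gap 0.788), Cyc1, at 4.21 (gap 0.716), and Txnrd1, at 3.03 (gap 0.801). Liver 4 was far above the other liver arrays for Chil3, at 3.42 (gap 0.719). Liver 3 was far above them for Gbp6, an interferon-induced GTPase, at 2.06 (gap 0.823), and liver 2 for the summed level of the Kupffer cell list, at 7.31 (gap 0.747).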

How the results depend on the processing

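Over 10 arrays limma called 0 genes under every background correction, scaling and filter tried, with a trended and robust fit, and with non-uniform spots kept. The mean of a gene's probes gave 1 call, higher in lung (0 in liver). Array weights gave 254 calls (95 higher in lung and 159 in liver), and a model of all 24 arrays 43 (34 and 9). Omission of lung 1 and liver 5 together gave 1959 (1127 and 832). Omission of 1 array gave 0 to 84 calls (0 to 77 in lung, 0 to 28 in liver). Omission of 1 lung and 1 liver array, added after the data were seen, gave 0 to 105 (0 to 95 and 0 to 49) over the other pairs. The cause of these shifts was not tested.

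With the slide as a replicate block limma called 0 genes (0 in lung and 0 in liver), 2009 genes had an unadjusted p under 0.05 and the smallest adjusted p was 0.104. As a random block, with a consensus correlation of 0.183, it again gave 0 calls, with a smallest adjusted p of 0.0618. Not every array correlated best with its own number.

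Cd3e alone reversed, to 0.0374 with the median of commonly detected probes as the scale. Of the other values of named genes under the alternatives, 2501 kept their direction and side of the threshold and 214 moved past it. List medians moved beyond the spread in 24 of 1170 cases. The genes not above background on the liver arrays have only lower bounds for their folds, which limits the size stated for most macrophage genes.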

Other observations

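Interferon-induced genes showed no common direction. Of the 19 tested interferon gamma-induced genes, 10 were higher in lung, with a median difference of 0.0015 beside -0.27 over all genes, and 3 were called higher in liver and 1 higher in lung without lung 1 and liver 5, beside 10.1% and 13.6% of all genes. Gbp6, a guanylate-binding protein, was 0.41, 3.08, 1.72, 2.58 and 2.32 in lung and -0.11, 0.00, 2.06, -0.38 and 0.06 in liver, overlapping through lung 1, lung 3 and liver 3. Its difference was 1.69 ± 0.56 (limma adjusted p = 0.183). Of the 20 tested type I interferon-stimulated genes, 6 were higher in lung and the median was -0.28.

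Cdkn1a, which encodes the cell cycle inhibitor p21, was 1.54, 2.99, -0.19, 2.22 and 1.86 in lung and 0.06, 0.05, -1.04, -0.93 and 1.41 in liver. Its difference was 1.77 ± 0.60 (limma adjusted p = 0.188 over 10 arrays, 0.0354 without lung 1 and liver 5). Cdkn1a passed the detection filter through lung only, and that omission was chosen with earlier results known, so these p-values are no support. It was highest on lung 2 and lowest among lung arrays on lung 3, and liver 5 was the highest liver array. Of 19 immediate-early genes, which are induced by receptor signals and by tissue dissociation, 10 were higher in lung, with a median of 0.01.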
